A study of Neurospora crassa with 34 samples.

Results

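The levels of 8 small RNA silencing genes of Neurospora crassa, a filamentous fungus, were followed through 16 poly-A+ mRNA-seq libraries. The genes were qde-1 (NCU07534), qde-2 (NCU04730), qde-3 (NCU08598), qip (NCU00076), dcl-1 (NCU08270), dcl-2 (NCU06766), sms-2 (NCU09434) and sad-1 (NCU02178), chosen by name from the 9730 genes counted. The study asked how moving chromosome segments changes methylation of histone H3 at lysine 27 (H3K27me2/3), a mark of silent chromatin, and gene expression. It sequenced mRNA of 7 rearrangement strains with 2 libraries each, which it describes as biological duplicates, and of 2 libraries labelled OY329 delta set-7, from isolates N6086 and N6087. These isolates are labelled as OY329 with a deletion of set-7, the gene for the H3K27 methyltransferase. OY329 itself is mat A with T(VI→III), ALS159 is mat A with T(IV→VI), OY337 is mat A with T(II→IV) and al-2, and OY350 is mat A with T(VIL→IR). UK2-32 is mat A with T(IVR→VL), UK3-41 is mat A with inl and a translocation of LG VR (LG, linkage group), and AR16 is mat a with the inversion In(IL→IR). Each strain is a single isolate, so its rearrangement cannot be told apart from the rest of its genotype. All cultures were shaken for 16 h at 32 °C in Vogel's medium with 1.5% sucrose. Wild-type libraries were not analysed here, so each strain was set against the other 6 strains.

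In quelling, repeated DNA in vegetative cells gives rise to aberrant RNA that is turned into small interfering RNAs, which guide the destruction of matching transcripts. The helicase QDE-3 and the RNA-dependent RNA polymerase QDE-1 act at the start, the Dicers DCL-1 and DCL-2 cut double-stranded RNA, and the Argonaute QDE-2, with the exonuclease QIP, uses the resulting small RNAs. Meiotic silencing by unpaired DNA silences genes that find no partner in the sexual phase, and it has its own polymerase, SAD-1, and its own Argonaute, SMS-2, while it shares DCL-1 and QIP.

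The libraries held between 6435058 (OY329 replicate 3) and 27994440 (OY329 replicate 1) reads on genes. A further 5.61 to 18.1% of the reads in 13 libraries were not assigned to a gene, against 23.6 to 27.0% in the 2 OY329 delta set-7 libraries and OY329 replicate 3. Levels are given as CPM, the counts divided by a library size that was scaled by edgeR's TMM method and expressed per megaread, and intervals on counts cover counting error alone. The set-7 transcript was at 3.47 and 2.00 CPM in the libraries labelled OY329 delta set-7, against 9.72 and 9.52 CPM in OY329. Reads of set-7 thus remained in both, and the log2 fold change was −1.79 (SE 0.26, edgeR, adjusted p = 0.0036). The tissue label is germinated conidia, and 5 conidiation markers summed to between 73.4 CPM (ALS159 replicate 1) and 15826 CPM (UK3-41 replicate 2). A single marker could make up most of this sum, such as eas at 15576 CPM in UK3-41 replicate 2. In OY329 replicate 3 it was con-8, at 1813 of 1930 CPM.

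Per kilobase of annotated gene, the members spread over a wide range of levels. The Argonaute gene qde-2 was the most abundant, with a mean of 40.6 CPM per kb over the 16 libraries, which was above 82.7% of all genes. It was followed by the Dicer gene dcl-1 at 14.6 CPM per kb, qip at 5.39, qde-1 at 4.40, dcl-2 at 3.30 and qde-3 at 2.91. Both genes that act in meiosis alone were near the bottom, sad-1 at 0.13 and sms-2 at 0.12 CPM per kb. In such cultures fewer cells of a kind and less RNA per cell cannot be told apart. In total 106 reads of sad-1 and 62 reads of sms-2 were counted in the 16 libraries, against 27522 reads of qde-2.

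**Figure D1:**
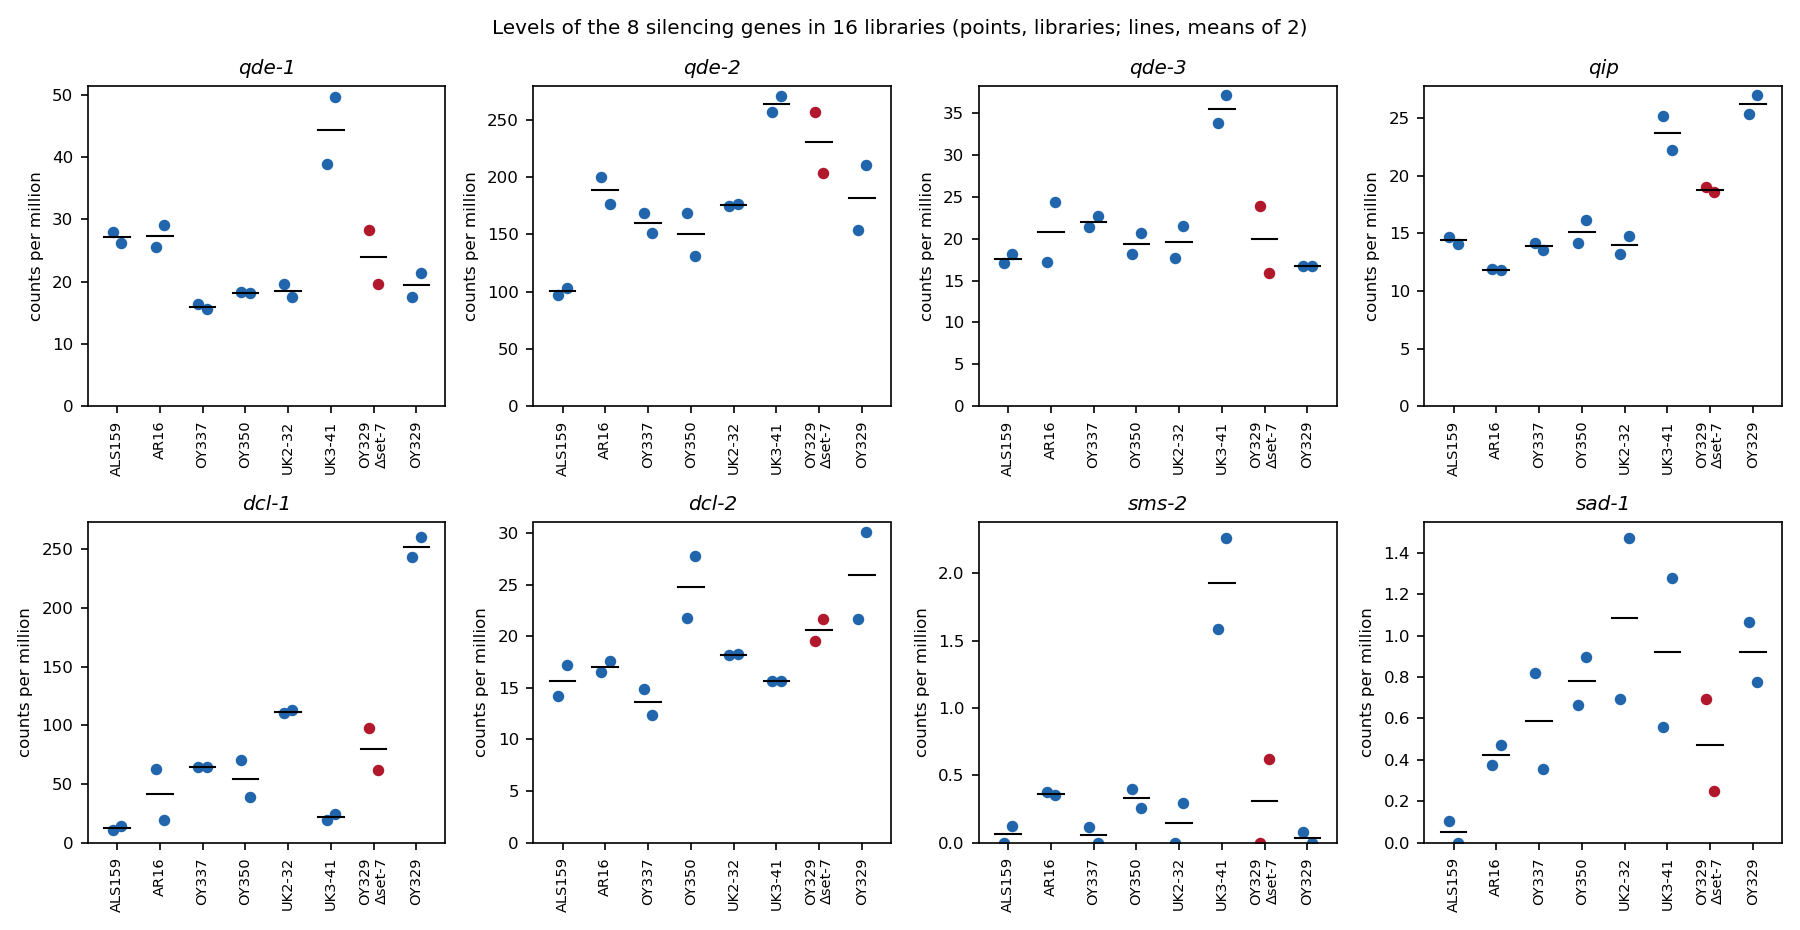
Level of each gene (vertical axis, CPM, from 0) in the 2 libraries of each group (points, with the mean as a line), the OY329 delta set-7 libraries in red beside OY329. Both UK3-41 libraries were highest for qde-1, qde-3 and sms-2, and both OY329 libraries were highest for dcl-1 at 243 and 260 CPM.

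All 8 genes passed the filter on low counts, and all 8 differed among the 7 strains (edgeR's F test), in a background where 78.5% of the 8170 genes tested did. The count for sad-1 and sms-2 needs care, since they passed the filter only through the libraries in which they were high. The call of sad-1 (adjusted p = 0.0406) was lost in 12 of the alternative analyses, 8 of which left out 1 library (ALS159 replicate 1 or 2, AR16 replicate 1 or 2, OY329 replicate 1, OY350 replicate 1 or 2, or UK2-32 replicate 2), with adjusted p values between 0.0501 and 0.164. The SD of the 7 strain means was 1.45 on the log2 scale for dcl-1, larger than for 93.4% of the genes tested, and 0.34 to 0.50 for the other 5 members above 10 CPM, against a median of 0.48 over all genes.

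Strain by strain, 15 of the 56 pairs of gene and strain passed the test, 9 higher and 6 lower. In ALS159 0 members were higher and 3 were lower (qde-2, dcl-1 and sad-1), where 26.0% of all genes were higher and 25.6% lower. One of the 3, sad-1, passed the filter only through libraries of other strains in which it was high, which leaves qde-2 and dcl-1 without it. In UK3-41 5 were higher (qde-1, qde-2, qde-3, qip and sms-2) and 1 was lower (dcl-1), against 29.8% and 26.5% of all genes. One of the 5, sms-2, passed the filter through UK3-41 alone and so had to differ there, which leaves 4 higher and 14 pairs in all without it. With at least 10 reads required in every library, which leaves out both sms-2 and sad-1, 13 of 42 pairs passed. In OY329 3 were higher (qip, dcl-1 and dcl-2) and 0 lower, against 26.2% and 21.6% of all genes. In UK2-32 1 was higher (dcl-1) and 0 lower, against 17.5% and 12.6%. The other strains had smaller backgrounds, with 1 member lower in AR16 (qip, where 6.27% of all genes were higher and 3.07% lower) and 1 lower in OY337 (qde-1, where 8.24% were higher and 2.74% lower). In OY350 0 members passed at an adjusted p under 0.05 with edgeR or with DESeq2, where 3.84% of all genes were higher and 1.08% lower with edgeR, and 2 members had an unadjusted p under 0.05, qde-1 (0.0162) and dcl-2 (0.00613). DESeq2 called the same 15 pairs. At an unadjusted p under 0.05 alone, qde-1 was at a higher level in AR16 and a lower one in UK2-32, sad-1 at a higher level in OY329 and UK2-32, qde-3 at a lower one in OY329, and qip and dcl-2 at lower ones in OY337, while in ALS159 and UK3-41 the number of such members was 0. These comparisons share libraries, since each strain is part of the set that the other strains were compared with.

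**Figure D2:**
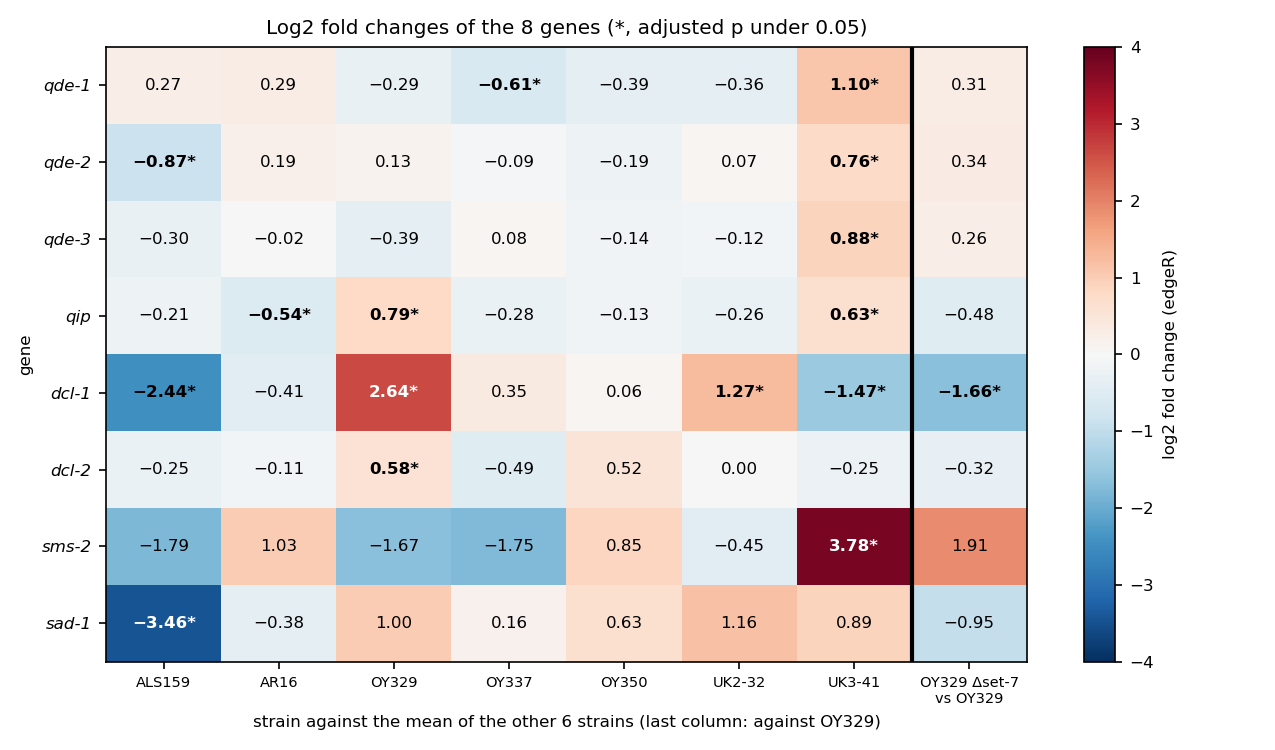
Log2 fold change (colour and number) of each gene (rows) in each strain against the mean of the other 6 strains, and of OY329 delta set-7 against OY329 (last column), with a star for an adjusted p under 0.05. The row of dcl-1 spans −2.44 in ALS159 to 2.64 in OY329, and the UK3-41 column holds 5 starred values above 0 and 1 below.

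The Dicer gene dcl-1 varied most among the 6 members above 10 CPM. It had 243 and 260 CPM in OY329, against 10.6 to 113 CPM in the other 12 strain libraries, and the log2 fold change was 2.64 (SE 0.27, edgeR, adjusted p = 0.000115). Both OY329 libraries lay far above every other library, although 1 of them had the most and the other the fewest reads. It was lowest in ALS159, at 10.6 and 14.1 CPM against 19.0 to 260 CPM in the other strains (log2 fold change −2.44, SE 0.40, adjusted p = 0.000833). UK3-41 had 19.0 and 24.7 CPM, against 10.6 to 260 CPM in the other strains (log2 fold change −1.47, SE 0.37, adjusted p = 0.00594). UK2-32 had 111 and 113 CPM, against 10.6 to 260 CPM elsewhere (log2 fold change 1.27, SE 0.29, adjusted p = 0.00985). Thus UK2-32 stood above every library but those of OY329, and UK3-41 overlapped AR16. The UK2-32 call was lost without UK2-32 replicate 1 (adjusted p = 0.0871) or replicate 2 (0.0862), and that of UK3-41 without UK3-41 replicate 1 (0.0737). OY337 had 64.4 and 64.7 CPM of dcl-1. The 5 conidiation markers summed to 1589 and 1930 CPM in OY329, of which con-8 gave 1205 and 1813 CPM. There con-8 (log2 fold change 3.15) and con-10 (1.65) were higher, while con-6 (1.20), con-13 (−2.83) and eas (−1.49) did not pass the test. In UK2-32 the 5 markers summed to 1260 and 1442 CPM, with con-8 at 1187 and 1316 CPM. There con-8 (2.84) and con-10 (1.42) were higher and eas (−4.25) lower, while con-6 (−1.74) and con-13 (−3.65) did not pass. The part of the 5 markers in the dcl-1 values was not tested.

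Replicates of dcl-1 did not match in every strain. AR16 had 62.6 and 19.7 CPM, a ratio of 3.18, and OY350 had 70.4 and 38.6 CPM. Without AR16 replicate 1, dcl-1 was lower in AR16 (log2 fold change −1.48, edgeR, adjusted p = 0.0199), against −0.41 (adjusted p = 0.501) with both libraries. Reads of dcl-1 per read of dcl-2, the other Dicer gene, ran from 0.74 in ALS159 replicate 1 to 11.2 in OY329 replicate 1.

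The genes next to dcl-1 on LG IV also varied, and were looked at after their values had been seen. In the RefSeq annotation dcl-1 and pdx-4 (NCU08269), named for a requirement for pyridoxine, overlap by 37 bases, and since no source used here states whether the counting used strand, reads of the overlap cannot be assigned with certainty. The level of pdx-4 was 564 and 629 CPM in OY329, 114 and 183 CPM in ALS159, and 105 and 172 CPM in UK3-41. Like dcl-1 it was higher in OY329 (log2 fold change 1.10, adjusted p = 0.00451) and lower in ALS159 (−1.24, adjusted p = 0.00634) and in UK3-41 (−1.36, adjusted p = 0.00313). The next gene, NCU08268, which does not overlap dcl-1, changed by 1.17, −1.24 and −0.85 in the same strains (adjusted p = 0.000489, 0.000847 and 0.00388). On the other side of dcl-1, NCU08271 was lower in ALS159 (−1.40, adjusted p = 0.00338), while its values in OY329 (0.52, adjusted p = 0.0888) and UK3-41 (−0.35, adjusted p = 0.279) did not pass the test. In UK2-32, where dcl-1 was higher, pdx-4 (0.67, adjusted p = 0.0707), NCU08268 (0.21, adjusted p = 0.409) and NCU08271 (0.34, adjusted p = 0.341) did not pass it either. Whether dcl-1 changed more than these genes was not tested. Reads of pdx-4 per read of dcl-1 were 2.32 and 2.42 in OY329 and 10.8 and 12.96 in ALS159, so the counts did not keep 1 ratio. The part of overlapping reads in the dcl-1 values was not tested.

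By the root mean square (RMS) difference of centred log2 strain means over the 8 groups, csp-1 (NCU02713) was the gene most like dcl-1 among the 6347 genes with at least 10 CPM. The RMS difference was 0.28, against a median of 1.34 over these genes, and NCU05524 was next at 0.32. The csp-1 gene encodes a transcription factor needed for the separation of conidia. It had 1469 and 2093 CPM in OY329, 124 and 163 CPM in ALS159, and 140 and 188 CPM in UK3-41. In AR16 it had 441 and 184 CPM and in OY350 989 and 453 CPM, so that its replicates differed in the same direction as those of dcl-1.

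**Figure D3:**
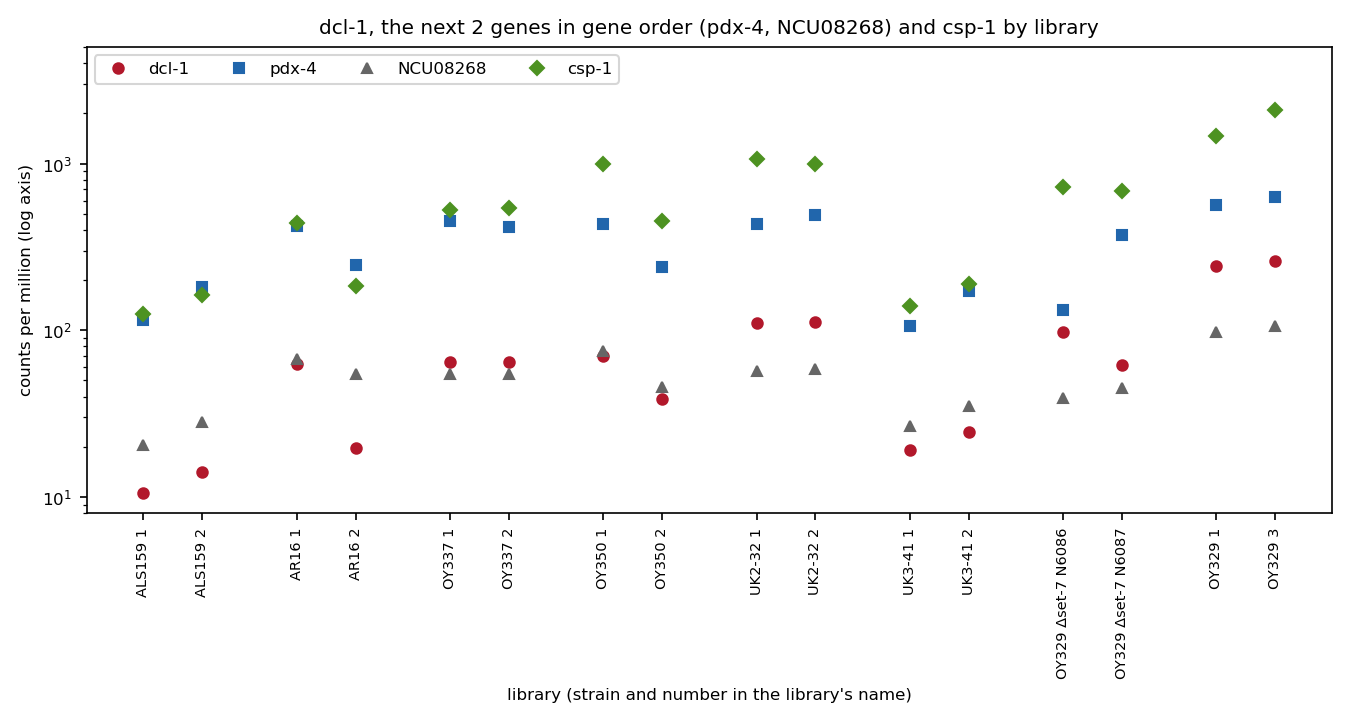
Level (vertical log axis, CPM) of dcl-1, of the next genes in gene order, pdx-4 and NCU08268, and of csp-1 in each library (horizontal axis, by strain and number in the library's name). All 4 genes had their highest levels in the OY329 libraries, and dcl-1 was at 10.6 and 14.1 CPM in ALS159.

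The second Dicer gene, dcl-2, moved within a narrow range of 12.4 to 30.1 CPM. It was higher in OY329, at 21.6 and 30.1 CPM against 12.4 to 27.8 CPM in the other strains (log2 fold change 0.58, SE 0.15, edgeR, adjusted p = 0.00971). The OY329 libraries overlapped those of OY350, which had 21.7 and 27.8 CPM. Without OY329 replicate 3 the log2 fold change was 0.37 (adjusted p = 0.106). In OY350 the log2 fold change of dcl-2 was 0.52 (adjusted p = 0.0816), and it passed the threshold without OY329 replicate 1 (adjusted p = 0.0459) or replicate 3 (0.0316).

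dcl-2 lies on LG II, close to genes that the study lists as gaining H3K27me2/3 in OY337. NCU06771 and NCU06772, at 4 and 5 places before it in gene order, are on that list, and dcl-2 is not. NCU06772 had 0.47 and 1.43 CPM in OY337, against 18.1 to 45.9 CPM in the others (log2 fold change −4.90, SE 0.34, adjusted p = 2.81e-05). NCU06771 had 11.6 and 10.3 CPM, against 45.2 to 98.3 CPM (log2 fold change −2.66, SE 0.14, adjusted p = 1.96e-06). For the 3 genes between them and dcl-2 the log2 fold changes were 0.20 (NCU06769), −0.32 (NCU06768) and −0.13 (NCU06767), with adjusted p values of 0.595, 0.278 and 0.461. dcl-2 itself had 14.9 and 12.4 CPM in OY337, against 14.2 to 30.1 CPM in the other strains, and its log2 fold change of −0.49 (95% interval −0.85 to −0.12) had an adjusted p of 0.0852. Without OY329 replicate 1 it passed the threshold (log2 fold change −0.52, adjusted p = 0.0344).

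The polymerase gene qde-1 and the helicase gene qde-3 were both highest in UK3-41. qde-1 had 38.9 and 49.7 CPM in UK3-41, against 15.6 to 29.1 CPM in the other strains (log2 fold change 1.10, SE 0.12, edgeR, adjusted p = 3.93e-05). qde-3 had 33.9 and 37.2 CPM, against 16.7 to 24.4 CPM (log2 fold change 0.88, SE 0.13, adjusted p = 0.000304). For neither gene did the UK3-41 libraries overlap another strain, and both calls held in every alternative analysis. UK3-41 also had the highest summed level of the 5 conidiation markers in 1 of its libraries, with 5147 and 15826 CPM, against 73.4 to 8480 CPM in the other strains. Most of the UK3-41 sum was eas, at 5022 and 15576 CPM. Of these markers 2 were higher in UK3-41 (con-13 and eas) and 1 was lower (con-8, log2 fold change −2.37), against 29.8% and 26.5% of all genes. con-13 was at 73.3 and 111 CPM there and at 0 in 4 libraries of other strains. The part of the 5 markers in the UK3-41 values was not tested. Upper quartile scaling moved the median of all genes in UK3-41 up by 0.14 on the log2 scale and the share of calls that were higher to 63.0%, against 53.0% with TMM. The calls of all 5 members other than sms-2 that passed in UK3-41 held under it.

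At the lower end, qde-1 had 16.4 and 15.6 CPM in OY337, against 17.5 to 49.7 CPM in the other strains (log2 fold change −0.61, SE 0.14, edgeR, adjusted p = 0.02). The groups did not overlap, but the call was lost without OY337 replicate 1 (adjusted p = 0.192) or replicate 2 (0.202). In OY337 3 of the 5 conidiation markers were higher and 0 lower, against 8.24% and 2.74% of all genes. The higher ones were con-8 (log2 fold change 1.91), con-13 (4.09, at 14.9 and 1.90 CPM) and eas (4.11). The 5 markers summed to 8480 and 2348 CPM, and their part in the qde-1 value was not tested. For qde-1, OY350, UK2-32 and OY329 lay just above OY337, with means of 18.2, 18.5 and 19.5 CPM and overlapping libraries. Without OY329 replicate 1, qde-1 passed the threshold in UK2-32 (log2 fold change −0.39, adjusted p = 0.042), against −0.36 (adjusted p = 0.0693) with all libraries. qde-3 was lowest in OY329, at 16.8 and 16.7 CPM against 17.1 to 37.2 CPM in the other strains, with a log2 fold change of −0.39 (adjusted p = 0.0542). Without AR16 replicate 1 (adjusted p = 0.0199) or replicate 2 (0.0476) this passed the threshold, and without AR16 replicate 1 so did the lower level in ALS159 (log2 fold change −0.36, adjusted p = 0.034).

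The Argonaute gene qde-2 was highest in UK3-41 and lowest in ALS159. UK3-41 had 256 and 271 CPM, against 97.0 to 210 CPM in the other strains (log2 fold change 0.76, SE 0.13, edgeR, adjusted p = 0.000658). ALS159 had 97.0 and 103 CPM, against 131 to 271 CPM in the other strains (log2 fold change −0.87, SE 0.15, adjusted p = 0.00101). Both strains stood apart from all other strain libraries, and both calls held in every alternative analysis. The means of OY350, OY337, UK2-32, OY329 and AR16 lay between 149.97 and 189 CPM. Of these neighbours in order, only OY337 and UK2-32 had libraries that did not overlap. In ALS159 the sum of the 5 conidiation markers was at its lowest, at 73.4 and 170 CPM. Of the markers 3 were lower (con-8, con-10 and eas) and 0 higher, against 25.6% and 26.0% of all genes. con-6 and con-13 did not pass the test. The part of the 5 markers in the ALS159 values was not tested.

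qde-2 was the only one of the 8 genes on a list of genes with changed H3K27me2/3 in any of the 7 strains. It is on the OY350 gain list, as number 14 of 25 genes in gene order on LG VI. In OY350 it had 169 and 131 CPM, against 97.0 to 271 CPM in the other strains, and the log2 fold change was −0.19 (95% interval −0.50 to 0.12, edgeR, adjusted p = 0.481). Of the 19 genes on this list that could be tested, 6 were lower and 0 higher in OY350, against 1.08% and 3.84% of all genes. Their median log2 fold change was −0.47, against 0.02 over all genes tested.

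The 5 genes before qde-2 in gene order are all on the OY350 gain list. NCU04728 had 7.20 and 7.04 CPM in OY350, against 6.30 to 46.6 CPM in the others (log2 fold change −1.42, SE 0.21, adjusted p = 0.0044). NCU04726 changed by −1.15 (SE 0.13, adjusted p = 0.000991) and NCU04725 by −1.58 (SE 0.33, adjusted p = 0.0234). For NCU04727 (−1.19, adjusted p = 0.349) and NCU04729, the direct neighbour (−0.43, adjusted p = 0.105), the test was not passed. For these 5 genes the OY350 libraries were not lower than all others, except for NCU04729, at 22.9 and 18.7 CPM against 23.3 to 35.3 CPM. On the other side, sah-2 (NCU04731) is not on the list and had a log2 fold change of 0.38 (adjusted p = 0.393). The next listed genes, NCU04732 and mus-50 (NCU04733), were at 0.35 (adjusted p = 0.176) and −0.28 (adjusted p = 0.42). NCU14166 (an ncRNA) and NCU15363 (a tRNA) also lie among the 5 places after qde-2 and have no value here.

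**Figure D4:**
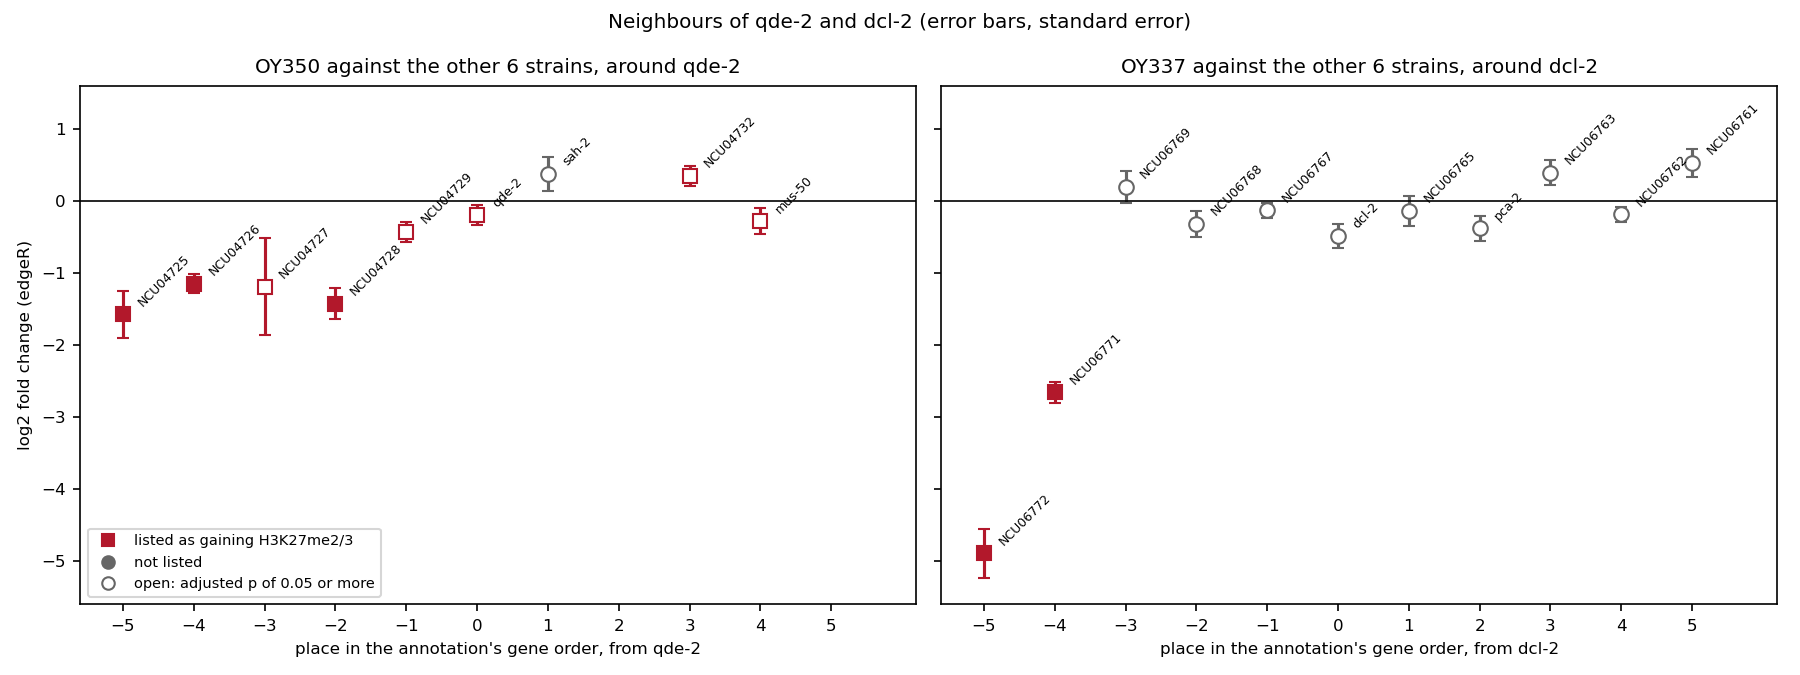
Log2 fold change (points, with the standard error) of the genes at up to 5 places before and after qde-2 in OY350 (left) and dcl-2 in OY337 (right), against the other 6 strains. Red squares are genes listed as gaining H3K27me2/3 and filled symbols passed the test. qde-2 lay at −0.19 and dcl-2 at −0.49, while NCU06772 lay at −4.90.

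The exonuclease gene qip was higher in OY329, at 25.3 and 27.0 CPM against 11.8 to 25.2 CPM in the other strains (log2 fold change 0.79, SE 0.11, edgeR, adjusted p = 0.000489). It was also higher in UK3-41, at 25.2 and 22.2 CPM against 11.8 to 27.0 CPM (log2 fold change 0.63, SE 0.11, adjusted p = 0.000877). These 4 libraries lay above the 10 others, which ended at 16.1 CPM. AR16 was lowest, at 11.88 and 11.79 CPM against 13.2 to 27.0 CPM in the other strains (log2 fold change −0.54, SE 0.13, adjusted p = 0.0265). The AR16 call was lost without AR16 replicate 1 (adjusted p = 0.0765) or 2 (0.165), ALS159 replicate 1 (0.0513), OY337 replicate 1 (0.0555) or UK2-32 replicate 2 (0.0516). In the annotation qip overlaps tim14 (NCU00075), a gene of mitochondrial protein import, by 42 bases. tim14 was lower in AR16 as well (62.4 and 65.1 CPM, log2 fold change −0.56, adjusted p = 0.0351), but in OY329 (−0.25, adjusted p = 0.16) and UK3-41 (−0.10, adjusted p = 0.563) it did not pass the test. The part of overlapping reads in the qip values was not tested.

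The genes of meiotic silencing gave few reads. sms-2, the Argonaute gene, had 17 and 23 reads in UK3-41, which is 1.59 and 2.26 CPM, and between 0 and 3 reads in each of the other 12 strain libraries. Over the libraries of a group this was 1.92 CPM in UK3-41, against 0.15 CPM in the other strains, a ratio of 12.6 (95% exact interval 6.97 to 23.7). sms-2 passed the filter through UK3-41 alone, so that its call there (edgeR, adjusted p = 0.000127) and the other strains must be read with that in mind. A strain library with 0 reads of sms-2 allowed a level of up to 0.32 CPM (ALS159 replicate 1) to 0.58 CPM (OY329 replicate 3). The UK3-41 level lay above these limits.

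sad-1, the polymerase gene of meiotic silencing, had 1 and 0 reads in ALS159 and between 3 and 28 reads in the other strain libraries. It passed the filter only through libraries of other strains in which it was high, so its call in ALS159 must be read with that in mind. The level over the group was 0.06 CPM in ALS159, against 0.83 CPM in the other strains, a ratio of 0.07 (95% exact interval 0.0017 to 0.40). The edgeR call (adjusted p = 0.00799) was lost without ALS159 replicate 2 (adjusted p = 0.0701). The highest libraries, UK2-32 replicate 2 at 1.47 CPM and UK3-41 replicate 2 at 1.28 CPM, each had a partner at 0.69 and 0.56 CPM. Of 5 sexual development markers tested (asd-1, asd-3, poi-2, sub-1 and pp-1), 2 were lower in ALS159, against 25.6% of all genes. In UK3-41 2 were higher and 2 lower, against 29.8% and 26.5%. In UK2-32 2 were higher (asd-1 and sub-1) and 0 lower, against 17.5% and 12.6%, while poi-2 (log2 fold change −1.20) and asd-3 (−0.72) did not pass. In OY329 1 was higher (asd-1) and 1 lower (poi-2), against 26.2% and 21.6%. The OY329 libraries did not match for asd-1, with 212 CPM in replicate 1 and 2317 CPM in replicate 3. The other strains had 54.9 to 1504 CPM of asd-1. The part of these markers in the sad-1 values was not tested. fmf-1, a regulator of fruiting body development, was not among the markers tested and was between 0 and 0.27 CPM in the 16 libraries.

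In the set-7 comparison, with edgeR and with DESeq2, 0 members were higher (0 also at an unadjusted p under 0.05) and 1 was lower, where 4.84% of the 8223 genes tested were higher and 2.70% lower. The lower gene was dcl-1, at 97.5 and 61.9 CPM in OY329 delta set-7 against 243 and 260 CPM in OY329 (log2 fold change −1.66, SE 0.43, edgeR, adjusted p = 0.0398). Both delta set-7 libraries were below both OY329 libraries. The deletion cannot be told apart from other differences between isolates N6086 and N6087 and OY329. Reads without a gene were 23.6 and 27.0% in the delta set-7 libraries, against 10.0 and 26.3% in those of OY329. The dcl-1 call was lost in 12 of 21 alternative analyses, with adjusted p values of 0.0521 to 0.18. Leaving out either library of ALS159, OY329, OY337, UK2-32 or UK3-41, or isolate N6087, ended it, and so did a fit to the 4 OY329 and OY329 delta set-7 libraries alone. Without N6087 the log2 fold change was −1.37 (adjusted p = 0.146), and over all alternatives it ran from −2.02 to −1.37. dcl-1 is not on the OY329 lists of genes with changed H3K27me2/3. pdx-4, which overlaps it, had 133 and 373 CPM in OY329 delta set-7, against 564 and 629 CPM in OY329 (log2 fold change −1.24, adjusted p = 0.118). For NCU08268 the log2 fold change was −1.28 (adjusted p = 0.00995), and for csp-1 it was −1.34 (adjusted p = 0.0684). csp-1 was chosen for its likeness to dcl-1 over groups that include both of these, so its fall followed from that choice.

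The other 7 genes did not pass the test in the set-7 comparison. qip came nearest, at 19.0 and 18.6 CPM in OY329 delta set-7 against 25.3 and 27.0 CPM in OY329 (log2 fold change −0.48, 95% interval −0.83 to −0.12, edgeR, adjusted p = 0.0916). qde-2 had 257 and 203 CPM in OY329 delta set-7, against 154 and 210 CPM in OY329 (log2 fold change 0.34, 95% interval −0.09 to 0.77, adjusted p = 0.302). The intervals for qde-1 (−0.14 to 0.76), qde-3 (−0.24 to 0.75) and dcl-2 (−0.77 to 0.13) also held 0. With 5 reads against 2, the ratio of sms-2 was 4.01 (95% exact interval 0.66 to 42.1), and with 10 reads against 32 that of sad-1 was 0.50 (0.22 to 1.05).

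Among the 6 members above 10 CPM, the RMS difference of centred log2 means over the 8 groups was smallest between qde-2 and qde-3 (0.31) and between qde-1 and qde-3 (0.32). Next came qip with dcl-2 (0.37), qip with qde-2 (0.39) and qip with qde-3 (0.42), ahead of qde-1 with qde-2 (0.46). dcl-1 lay farthest from the 5 others above 10 CPM, with RMS differences of 1.12 (dcl-2) to 1.59 (qde-1). The libraries are shared between genes, so these values are a description. The genes of most similar pattern were NCU05695 (RMS difference 0.09) and NCU03278 (0.13) for qde-1, NCU04603 (0.15) and NCU05575 (0.16) for qde-2, and NCU09500 and NCU01256 (0.13 each) for qde-3. For qip they were NCU00006 (0.15) and upr-1 (0.19), which encodes a DNA polymerase used in DNA repair, and for dcl-2 they were NCU02525 and NCU06460 (0.12 each). For the sparse genes they were NCU09659 and NCU09504 (0.36 each) with sms-2, and NCU07082 (0.26) and NCU00496 (0.33) with sad-1. The median RMS difference over all genes compared was 0.50 to 0.58 for the 5 genes other than dcl-1 above 10 CPM, 1.03 for sms-2 and 0.82 for sad-1.

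A list of 18 other genes of small RNA silencing and of the recombination factors tied to it was matched by symbol, and 8 of them were found and 7 tested. In OY329 3 were higher and 1 lower, against 26.2% and 21.6% of all genes, and in UK3-41 2 were higher and 1 lower, against 29.8% and 26.5%. In AR16 and OY350 1 each was higher, against 6.27% and 3.84% of all genes, and in the set-7 comparison 1 was lower, against 2.70%. In ALS159, OY337 and UK2-32 the number was 0 with edgeR, against 0, 1 and 1 at an unadjusted p under 0.05 and 1, 0 and 0 with DESeq2. The gene called by DESeq2 in ALS159 was sad-3, with 0 reads in both libraries. rpa-3, a subunit of the single-stranded DNA binding protein RPA, was lower in UK3-41 (log2 fold change −1.10, adjusted p = 4.56e-05) and in OY329 delta set-7 against OY329 (−0.84, adjusted p = 0.0113). It was higher in OY350 (0.49, adjusted p = 0.031), AR16 (0.45, adjusted p = 0.0267) and OY329 (0.30, adjusted p = 0.0426). The largest RPA subunit gene, rpa-1, was lower in OY329 (−0.93, adjusted p = 0.000898) and higher in UK3-41 (0.41, adjusted p = 0.0236). sad-3, a helicase gene of meiotic silencing, had 1.59 and 2.95 CPM in UK3-41 and 1.71 and 1.17 CPM in OY329, against 0 to 0.59 CPM in the other strains (adjusted p = 0.00115 and 0.00491). It passed the filter only through libraries of UK3-41 and OY329, in which it was high, so both calls must be read with that in mind. Without sad-3, 1 gene was higher in UK3-41 and 2 were higher in OY329. Over the 7 genes the median log2 fold change was between −0.07 (ALS159) and 0.23 (OY329) among the strains, where the medians over all genes were between −0.0041 and 0.04.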

How the data were processed

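The authors deposited read counts per gene, 2 files for each strain. Their processing notes name TopHat, SAMtools, HTSeq, DESeq, Bowtie2 and BWA, with no version. The annotation release and the strand setting of the counting are not given in the sources used here. The 5 summary rows of each file (reads without a gene, 5.61 to 27.0% of the total) were left out. Gene names, lengths and order came from RefSeq, which matched 9729 of the 9730 IDs. Overlaps were computed from its positions, which are not printed, as the study mapped to a corrected genome. From the authors' table of genes with changed H3K27me2/3, whose columns also hold fold changes and p-values, only gene, strain and whether the mark was gained or lost were used, and 1 column of values per sample was not. Breakpoint calls were not used.

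The counts were fitted with edgeR 4.0.16 (R 4.3.3; TMM, filterByExpr, quasi-likelihood). Each strain was tested against the mean of the other 6 in a fit of 14 libraries (8170 genes), and OY329 delta set-7 against OY329 in a fit of all 16 (8223 genes), with Benjamini-Hochberg adjustment over all genes and a threshold of 0.05. The fold changes have no bound where a group is near 0 reads. Log2 CPM used a prior count of 2. Ratios of few reads have exact (Clopper-Pearson) 95% intervals, and a count of 0 allows 3 counts. DESeq2 1.42.0, other filters and scaling, a replicate block and leaving out libraries were the alternatives.

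The members and lists were chosen with earlier results of these data known. The genes named are the members, set-7, the 5 genes on each side of qde-2, for each member the 2 genes of most similar pattern, and members of the pathway list that passed a test, of which 1 is not reported here. Markers of conidiation (con-6, con-8, con-10, con-13 and eas) and of sexual development (asd-1, asd-3, poi-2, sub-1, pp-1 and fmf-1) were named after their values were seen. The neighbours of dcl-1, dcl-2 and qip were also named after their values were seen. Replicate numbers come from the library names. In the 6 strains with replicates 1 and 2, same-numbered libraries had correlations of deviations between −0.26 and 0.39 over 15 strain pairs, of which 3 exceeded 0.1, so the numbers were not taken to pair libraries.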

Additional observations from a re-analysis of the deposited data

How the results depend on the processing

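The number of genes differing among the 7 strains was 8 in the reported analysis and 6 to 8 under the alternatives, 6 being all that were left when each library had to hold at least 10 reads of a gene. The number of gene and strain pairs called was 15, and 13 to 16 under the alternatives that left out no single library. With single libraries left out these ranges were 7 to 8 and 13 to 18. Of 64 single fold changes (56 in strains and 8 in the set-7 comparison), 16 were called, and 9 of these kept the call in every alternative. Over 1318 comparisons of a fold change with its value under an alternative, 25 lost and 13 gained the call, and 0 called values changed direction. With the replicate block the number of pairs was again 15, dcl-2 in OY329 lost its call (log2 fold change 0.37, adjusted p = 0.131), dcl-2 in OY350 gained one (0.55, adjusted p = 0.0423) and sad-1 no longer differed among strains (adjusted p = 0.0553). With OY329 left out, 3 values gained a call. The number of members called in the set-7 comparison was 1, fell to 0 when the 4 OY329 and OY329 delta set-7 libraries were fitted alone, and ran from 0 to 1 with single libraries left out. The cause was not tested, but that fit holds fewer libraries and tests 6 members. No paired analysis was possible for the set-7 comparison because the isolates carry no replicate numbers shared with OY329. Depth limits sms-2 and sad-1, for which 3 reads correspond to 0.11 to 0.58 CPM.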
